A study of Mus musculus with 8 samples.

Results

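Chromatin regions were chosen by their peak calls, which set the control and the combined genotype on one side and the single genotypes on the other. The data are ATAC-seq peak lists from c-Kit+ bone marrow cells of mice, covering 4 genotypes in duplicate (2 libraries per genotype). A region was a member when a peak lay in it in all 4 libraries of control and Smc3-deleted Flt3-ITD mice and in none of the 4 libraries of Flt3-ITD and Smc3 del/+ mice, or the reverse. Of 109822 merged regions on chromosomes 1 to 19, 396 were open in control and the combined genotype only and 37 were open in the single genotypes only, 433 in all. The calls of all 8 libraries chose these regions, so their calls are given as a description with no test.

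Control mice were Smc3 fl/+ without Mx1-Cre. The titles of all other libraries name Mx1-Cre, so Cre alone does not divide the sides of this comparison. Flt3-ITD mice carried the Flt3 internal tandem duplication, Smc3 del/+ mice had lost 1 Smc3 allele, and the combined mice are labelled Smc3 fl/del Flt3-ITD in the genotype field and Smc3 heterozygous in the title, which leaves their second Smc3 allele unsettled. All cells were taken 4 weeks after PIpC, which switches on the interferon-driven Cre in blood cells and in other tissues, and 50000 cells were used per sample. The labels give no age, sex or strain. They speak of individual mice, but whether the paired libraries of a genotype are separate animals is not spelled out. For the single genotypes, the description field names the alleles the other way round from title and genotype field. Both stand on the same side here, so swapping them left the counts at 396 and 37. The combined libraries stood apart on the sex chromosomes, with 282 and 294 peaks on Y against 84 to 98 in the other 6. X held 2.60% and 2.72% of the peaks in combined replicates 1 and 2, against 3.49% to 3.79% in the other 6. Whether the mice differed in sex was not tested. Only autosomes enter the member sets.

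ATAC-seq uses a transposase that cuts DNA where nucleosomes and other proteins leave it free, so peaks mark open promoters and enhancers. Smc3 is a core subunit of cohesin, the ring that extrudes chromatin loops and brings enhancers into contact with promoters, and cohesin genes are mutated in myeloid leukemia. Flt3 is a receptor tyrosine kinase of early blood progenitors, and its tandem duplication signals without ligand through Stat5 among other routes. A region of the larger set was called in neither single genotype and again in the genotype that joins both alleles.

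The larger set made up 0.881% of the 44924 autosomal regions called in all 4 control and combined libraries. Its counterpart made up 0.0967% of the 38281 regions called in all 4 single-genotype libraries. By the same rule 975 regions were open with Flt3-ITD only (2.15%) and 1277 without Flt3-ITD only (3.14%), while 141 were open with Smc3 deletion only (0.35%) and 161 without it (0.382%). The regions split by single against combined genotype thus leaned to one direction, 396 against 37, where the other splits were closer to even. The lists were not of equal length: the combined libraries held 80698 and 80316 peaks and control 74525 and 64777, against 61953 to 67152 in the single genotypes. When every list was cut to 61953 peaks by score, the counts were 131 and 146. The lean to the control and combined side was therefore seen with the lists as deposited and not with lists of equal length.

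The rule has a hard edge, and many regions lay just outside it. Regions called in all 4 control and combined libraries and in 1 single-genotype library numbered 1172. The single call came from Flt3-ITD replicate 1 in 446 of these (38.1%), Flt3-ITD replicate 2 in 325, Smc3 del/+ replicate 2 in 233 and Smc3 del/+ replicate 1 in 168. A further 1429 regions were called in 3 of the 4 control and combined libraries and in no single-genotype library, and the missing library was control replicate 2 in 728 of them (50.9%). Control replicate 2 had the shorter of the control lists. On the other side, 152 regions were called in all 4 single-genotype libraries and 1 other library, and 220 in 3 single-genotype libraries and no other. There the missing library was spread evenly, from 52 for Flt3-ITD replicate 2 to 60 for Smc3 del/+ replicate 2.

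**Figure D1:**
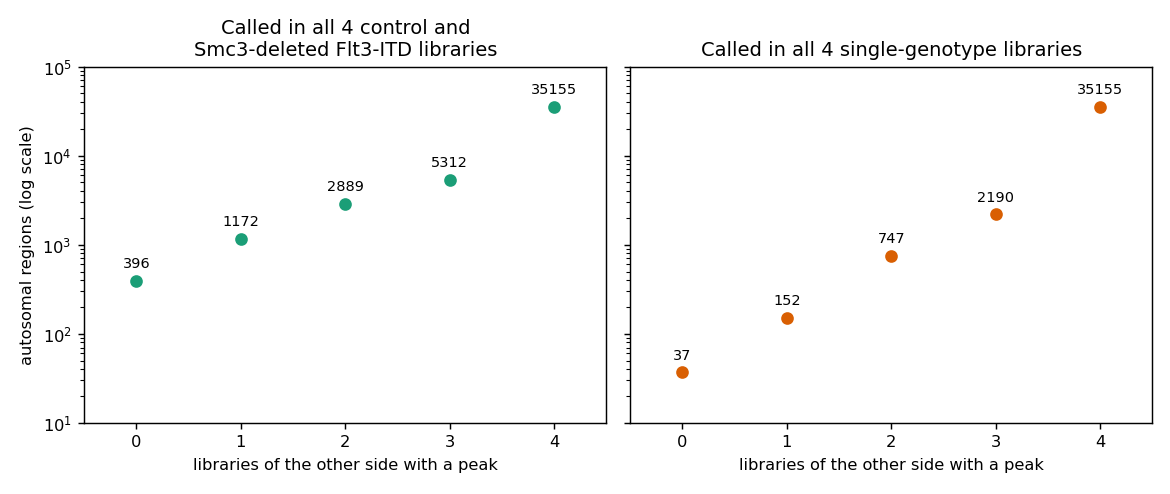
Autosomal regions (log scale) called in all 4 libraries of one side, by the number of libraries of the other side (x axis) that also had a peak. The members are the points at 0, with 396 and 37 regions, and the counts rise at each step to 35155 regions called in all 8 libraries.

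Leaving out a library loosens the rule, so each such count contains the original members. The control and combined set grew to 1124 without control replicate 2, 842 without Flt3-ITD replicate 1, 721 without Flt3-ITD replicate 2 and 713 without control replicate 1. It grew to 629 without Smc3 del/+ replicate 2 and 613 without Smc3-deleted Flt3-ITD replicate 2, and by less than 1.5 times without either remaining library. The single-genotype set grew to between 66 (without Smc3-deleted Flt3-ITD replicate 2) and 97 (without Smc3 del/+ replicate 2), and to 72, 73, 89, 89, 91 and 91 without Smc3-deleted Flt3-ITD replicate 1, control replicate 2, control replicate 1, Flt3-ITD replicate 2, Flt3-ITD replicate 1 and Smc3 del/+ replicate 1. The control and combined set stayed the larger one in each of these 8 removals. Among the settings in the plot of counts by setting, the lists of equal length moved both counts by the largest factor.

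**Figure D2:**
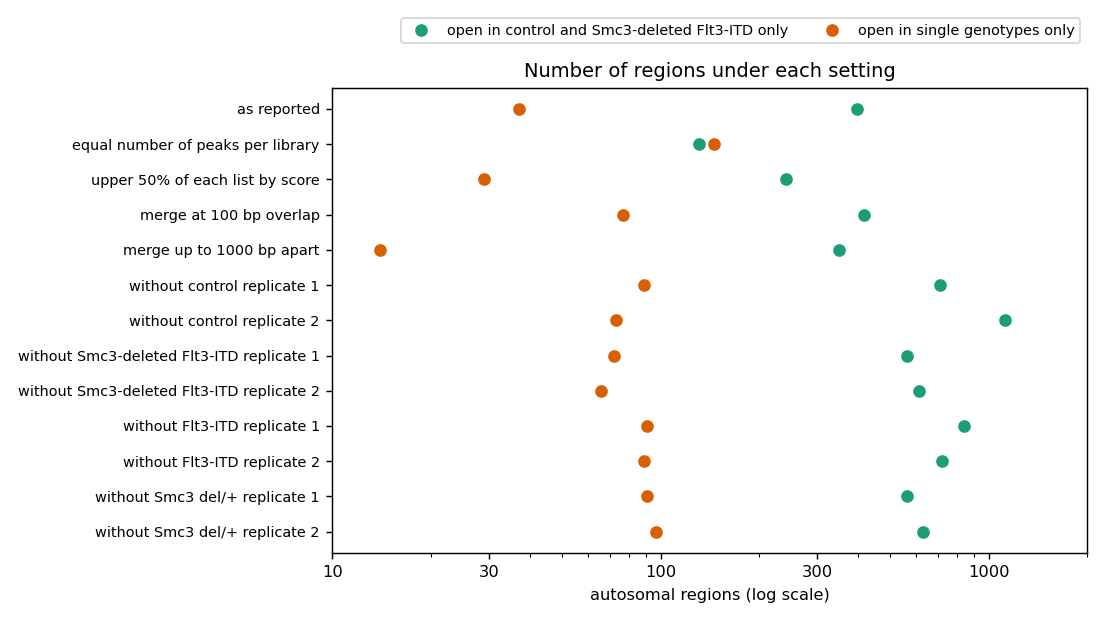
Number of autosomal regions (x axis, log scale) open in control and Smc3-deleted Flt3-ITD only (green) or in the single genotypes only (orange) under each setting (y axis). The green point lies to the right in every row except that of equal peak numbers, where the counts are 131 and 146.

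Regions were also followed from one genotype into the next. Of 1472 autosomal regions called in both control libraries and in no single-genotype library, 396 (26.9%) were called in both combined libraries, 384 (26.1%) in 1 of them and 692 (47.0%) in neither. Regions open in the single genotypes were followed in the same way. Of 339 called in all 4 single-genotype libraries and in no control library, 238 (70.2%) were called in both combined libraries and 37 (10.9%) in neither. A site opened in both single genotypes was thus mostly also called open in the combined genotype, whereas most sites of control missing from both single genotypes were not called in both combined libraries. With lists of equal length the shares were 13.8% and 50.6%. These sets share their control and single-genotype libraries, and the difference between the shares was not tested. The starting sets are also of unlike strictness, with calls required in both control libraries or in all 4 single-genotype libraries. The shares are therefore not directly comparable.

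Read from the other end, 6416 regions were called in both combined libraries and in no single-genotype library. Of these, 396 (6.17%) were called in both control libraries, 1045 (16.3%) in 1 and 4975 (77.5%) in neither. Most regions by which the combined genotype differed from both single genotypes were therefore not called in control. Of 392 regions called in all single-genotype libraries and in no combined library, 267 (68.1%) were called in both control libraries.

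Peaks of the control and combined set were weak within their own lists. The authors' score of a peak was turned into a percentile within its library, where peaks tied at the top score of 1 share a percentile of 82.5 to 86.4. The median percentile was 23.2 and 17.7 in control replicates 1 and 2 and 25.8 and 26.4 in Smc3-deleted Flt3-ITD replicates 1 and 2, or 20.5 ± 3.94 and 26.1 ± 0.473 (SD, n = 2 libraries each). These are ranks in lists of different length, so control and combined values are given side by side and no order is read from them.

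Regions called in all 8 libraries had median percentiles from 65.0 to 84.6 by library, on average 75.8 ± 12.4 in control and 82.6 ± 0.0882 in the combined genotype (SD, n = 2 each). Other regions called in exactly 4 libraries, 6880 in number, were nearer to the members, with 25.2 ± 3.63 in control and 30.4 ± 0.495 in the combined genotype (SD, n = 2 each). Regions open with Flt3-ITD only had 47.3 ± 0.500 in the combined and 21.9 ± 0.959 in the Flt3-ITD genotype (SD, n = 2 each). In the combined libraries, the peaks of the 396 members thus ranked lower than those of the Flt3-ITD split. The Smc3 split was weak as well. Regions open with Smc3 deletion only had 20.7 ± 1.05 in the combined genotype, and regions open without it 24.4 ± 3.19 in control (SD, n = 2 each). Only 5 of the 396 lay in the upper 50% of every list that called them, and 321 (81.1%) in the upper 50% of none.

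The 37 regions open in the single genotypes only were mostly weak as well, with medians of 28.9 and 23.9 in Flt3-ITD replicates 1 and 2 and 28.7 and 22.4 in Smc3 del/+ replicates 1 and 2. Groups overlapped. A minority of the peaks of the 37 had a score of exactly 1, with 4 to 7 such peaks per library. Their share was 16.4% ± 1.5 in the Flt3-ITD genotype and 11.4% ± 1.18 in Smc3 del/+ (SD, n = 2 each). For the larger set it was 1.11% ± 0.173 in control and 2.43% ± 0.356 in the combined genotype (SD, n = 2 each). Among all peaks of a library the share was 27.2% to 34.9%, so both sets lay below it. In 7 of the 37 every calling library had the region in its upper 50%.

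**Figure D3:**
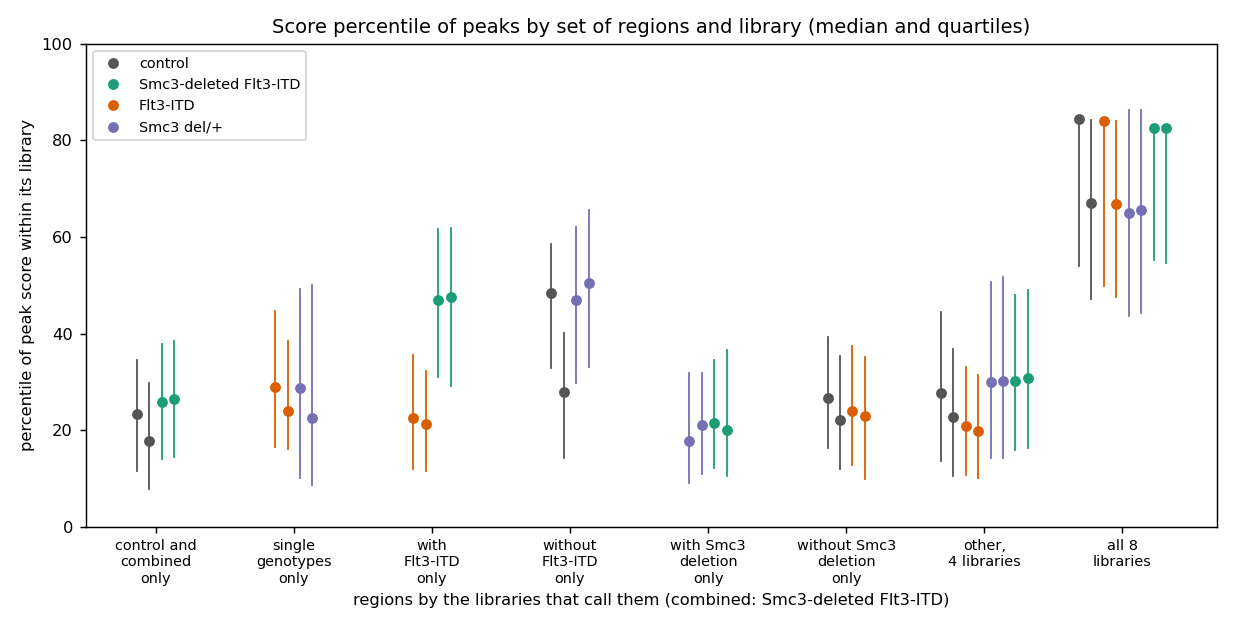
Percentile of the peak score within its library (y axis) for 8 sets of regions (x axis); each point is the median of 1 library and each line spans its quartiles. Medians of the 2 leftmost sets, from 17.7 to 28.9, sit far below those of regions called in all 8 libraries.

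Median peak width in the larger set was 411 and 431 bp in control replicates 1 and 2 and 405 and 409.5 bp in Smc3-deleted Flt3-ITD replicates 1 and 2, against 402 to 407 bp in the same libraries for regions called in all 8. Merged regions were wider, with a median of 963 bp and a range from 294 to 2304 bp. A merged region spans every peak of its calling libraries. Its width can come from offset peaks or from 1 wide peak, as at chr7:36119759-36120868 (1110 bp in Smc3-deleted Flt3-ITD replicate 1). A base covered by all 4 calling libraries existed in 272 of the 396 regions (68.7%) and in 26 of the 37 (70.3%), against 71.9% of other regions called in 4 libraries. In the remaining 124 and 11 regions the 4 peaks were chained together by overlaps without a base common to all of them.

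Open chromatin close to a member differed between the directions. In the single-genotype libraries, which do not call the larger set, 11.9% to 13.1% of its regions had a further peak at most 1 kb from its edge, a share of 12.6% ± 0.560 (SD, n = 4 libraries). The calling libraries had another peak there at 13.4% ± 1.07 (SD, n = 4). For the 37 regions of the single genotypes the corresponding shares were 38.5% ± 5.12 in control and combined libraries and 39.2% ± 4.68 in the single-genotype libraries (SD, n = 4 each). These SDs run over libraries scored on the same regions and do not measure the uncertainty of a share over 37 regions. Neighbouring peaks were thus about as frequent in libraries that call a member as in those that do not, and their shares were higher beside the 37 than beside the 396 in every library, a difference that was not tested. With lists of equal length the shares in the libraries that do not call the region were 23.6% and 17.4%. Regions called in all 8 libraries had such a peak in 17.1% to 18.8%, by library.

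Within 5 kb the shares for the larger set were 46.1% ± 3.78 in the calling and 39.8% ± 1.63 in the other libraries (SD, n = 4 each), and control replicate 2, at 40.7%, lay within the range of the single genotypes (37.9% to 41.4%). Control replicate 1 and the combined libraries also had longer lists than any single-genotype library. Control replicate 2, with 64777 peaks, lay within the single-genotype range of 61953 to 67152. In 117 of the 396 regions (29.5%) no single-genotype library had a peak within 10 kb, and the median distance to the nearest such peak was 5032 bp. In 7 of the 37 (18.9%) no control or combined library had a peak within 10 kb, and the median distance was 830 bp. By library, 59.7% of the larger set had another single-genotype peak within 10 kb on average, against 65.6% of other regions called in 4 libraries. In control and combined libraries it was 79.1% for the 37 and 70.5% for those other regions. The nearest region called in all 8 libraries lay at a median of 11.1 kb from the larger set and 3.22 kb from the 37. It lay 9.24 kb from other regions called in 4 libraries and 6.5 to 14.0 kb from the Flt3-ITD and Smc3 splits.

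**Figure D4:**
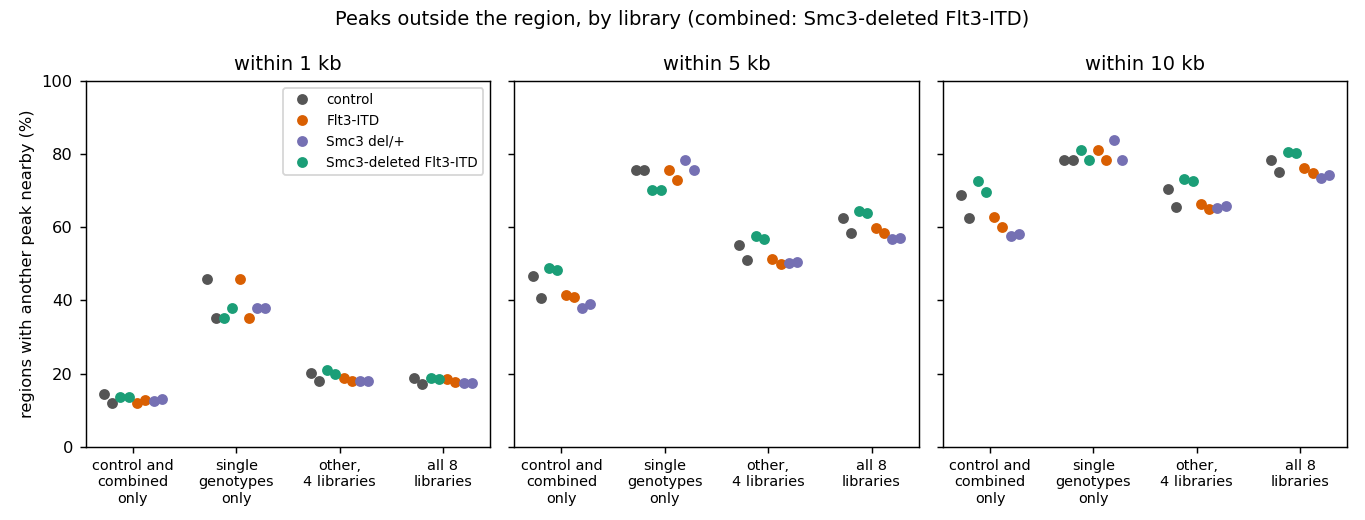
Share of regions with another peak outside the region within 1, 5 or 10 kb (panels, y axis in percent), by set of regions (x axis); each point is 1 library. Within 1 kb the regions open in the single genotypes only stand between 35.1% and 45.9%, and the other sets between 11.9% and 20.8%.

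The highest-scoring members were read one by one, ranked by mean score percentile in the libraries that called them. Among the 10 highest of the control and combined set, 7 had a single-genotype peak within 1 kb, and in 6 all 4 single-genotype libraries did. Over the 8 members with a mean percentile above 50 the count was 6, against 83 of the 388 others (21.4%). The strongest members were thus mostly places where the other libraries had a peak next to the region.

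Such a place on chromosome 4 held a member of each direction, 36 bp apart. At chr4:118905124-118905505, peaks of 367 and 307 bp in control replicates 1 and 2 and of 357 and 370 bp in Smc3-deleted Flt3-ITD replicates 1 and 2 all had a score of 1. At chr4:118905542-118906028 all 4 single-genotype libraries had peaks with a score of 1, of 372 and 453 bp in Flt3-ITD and 438 and 473 bp in Smc3 del/+ replicates 1 and 2. Every library thus had a full-score peak at this place, with the 4 control and combined peaks on the left and the 4 single-genotype peaks on the right.

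Chromosome 6 had the same arrangement with a gap of 30 bp. At chr6:127112744-127113178, the score percentile was 68.7 in control replicate 1 and at the top tie in the other 3 calling libraries, with peaks of 284 to 427 bp. At chr6:127113209-127113613, single-genotype peaks were 133 to 405 bp wide, and all but that of Smc3 del/+ replicate 1 (percentile 66.9) had a score of 1. These were the only neighbouring members of opposite direction within 1 kb. At chr18:12309694-12310148, open in the single genotypes only with peaks of 355 to 455 bp and scores of 1, all 4 other libraries had a peak 25 to 75 bp away. Flt3-ITD replicate 1 and Smc3 del/+ replicate 1 each had a further peak that overlapped those neighbouring peaks, so the sides were not cleanly divided there.

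Other high-ranking members of the larger set also bordered on single-genotype peaks. At chr16:20622387-20623369, with scores of 1 in all 4 calling libraries, the peak of control replicate 2 spanned 959 bp and those of the other libraries 160 to 380 bp. Single-genotype peaks began 269 to 728 bp away. At chr19:36340707-36341465 the 4 calling peaks shared only 9 bp, and single-genotype peaks lay 187 to 282 bp away. At chr2:91805825-91806297, with 286 shared bases, Smc3 del/+ replicate 2 had a peak 1 bp from the region, Smc3 del/+ replicate 1 one at 440 bp, and Flt3-ITD libraries only at 1780 and 1926 bp. At chr7:36119759-36120868 the combined libraries had wide peaks of 1110 and 683 bp at the top score and control libraries peaks of 359 and 324 bp at percentiles of 57.1 and 46.2, with single-genotype peaks 184 to 258 bp away. The last of the group, chr7:26169454-26170511, had single-genotype peaks at 448 to 631 bp. On chromosomes 16 and 19 and at both chromosome 7 places, the nearest single-genotype peak lay in a region called in all 8 libraries. Control and combined libraries thus had peaks in that neighbouring region too, unlike at the pairs on chromosomes 4 and 6. On chromosome 2 the nearest region called in all 8 lay 5.56 kb away.

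The other 3 of the 10 stood apart from any single-genotype peak. At chr8:10857851-10858794 the percentiles were 58.9 and 47.6 in control replicates 1 and 2 and 56.0 and 52.9 in the combined replicates, and the nearest single-genotype peaks lay 9283 bp (Flt3-ITD replicate 2) to 42687 bp (Smc3 del/+ replicate 1) away. At chr5:76067296-76067812 both combined libraries had a score of 1, control replicates 1 and 2 stood at percentiles of 34.0 and 7.75, and no single-genotype peak lay within 37120 bp. At chr15:85986582-85987876 the percentiles were 57.6 and 37.5 in control and 48.8 and 53.0 in the combined genotype, with the nearest single-genotype peak at 11104 bp. These 3 sites had peaks in all 4 libraries of one side and nothing near them on the other, although at chr8:10857851-10858794 the 4 peaks shared only 10 bp, against 274 and 203 bp at the others.

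**Figure D5:**
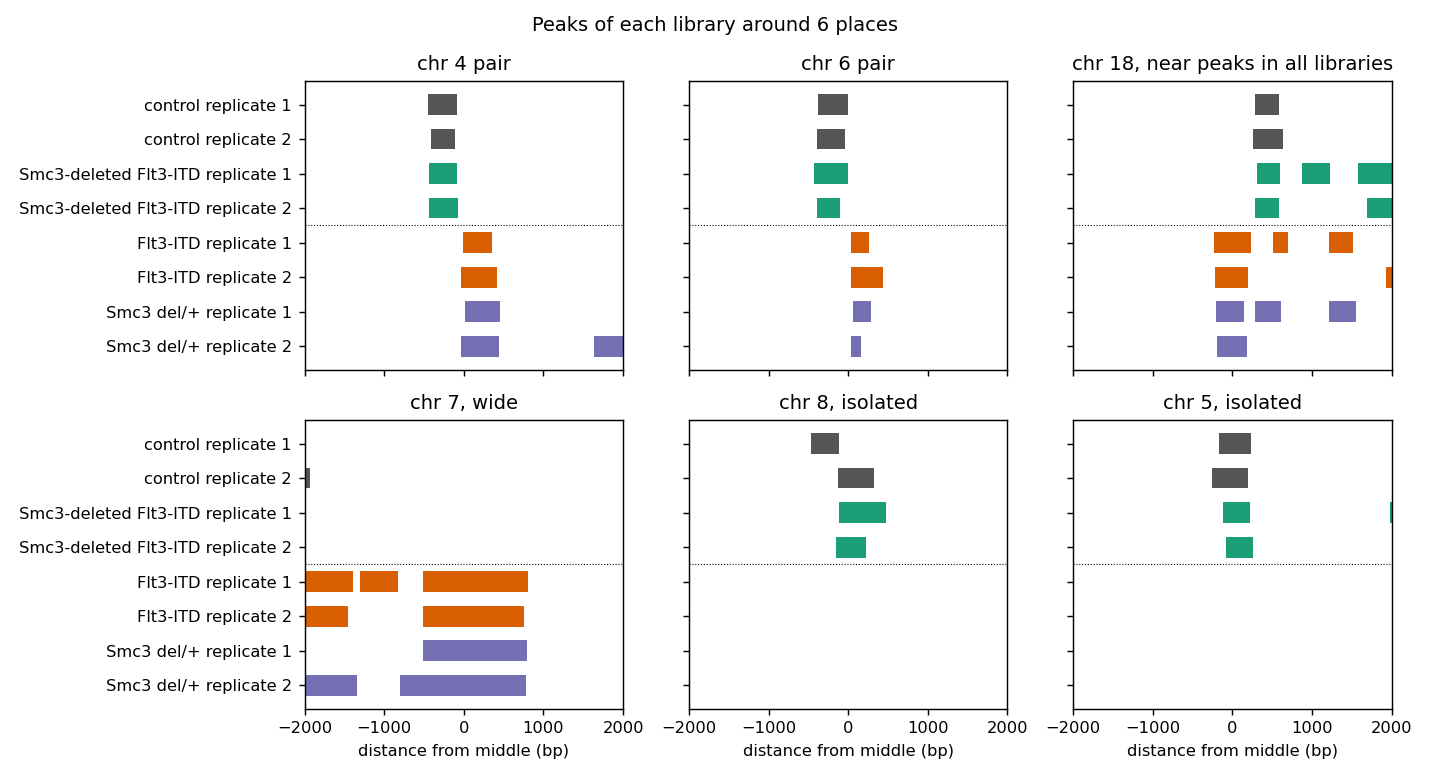
Peaks of each library (rows; bars show each peak's extent) by distance in bp from the middle of the place (x axis) at 6 places chosen after their values were seen; the dotted line divides control and Smc3-deleted Flt3-ITD (above) from the single genotypes (below). On chromosomes 4 and 6 the bars of the sides abut with gaps of 36 and 30 bp, on chromosome 18 the other libraries start 25 to 75 bp away, and on chromosomes 8 and 5 the lower rows are empty.

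In the single-genotype direction the regions ranked highest were chr7:29159664-29161266 and chr8:74845892-74847186. The former had peaks of 1318 and 1268 bp in Flt3-ITD and 1302 and 1580 bp in Smc3 del/+ replicates 1 and 2, all with a score of 1, and 1259 bases common to all 4. Control peaks lay 1541 and 1137 bp away and combined peaks 1573 and 1854 bp away. At the latter, peaks of 1176 and 1295 bp in Flt3-ITD and 1140 and 994 bp in Smc3 del/+ had a score of 1 and shared 994 bases, with control peaks at 2600 and 719 bp and combined peaks at 2419 and 1653 bp. These were broad peaks that agreed closely in position among the 4 single-genotype libraries. Of the 7 members of this direction with a mean percentile above 50, 5 had a control or combined peak within 1 kb, against 15 of the 30 others.

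The rest of this group was of mixed strength. At chr7:19889296-19890162 both Flt3-ITD libraries had a score of 1 and Smc3 del/+ libraries stood at 65.9 and 59.9. At chr19:5798965-5799421 percentiles ran from 58.6 in Smc3 del/+ replicate 1 to the top tie in Flt3-ITD replicate 2, with 328 shared bases and no peak of the other side within 1524 bp. At chr4:146774043-146775025 they ran from 32.9 to 68.4 by library. At chr11:45492170-45492888 and chr14:89044949-89045346 no control or combined library had a peak within 72720 and 66604 bp, but percentiles reached only 55.7 and 50.7, and on chromosome 11 the 4 peaks had no base in common.

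Requiring a base common to the 4 calling libraries and no peak of the other side within 1 kb left 208 of the 396 regions (52.5%) and 13 of the 37 (35.1%). The members lay on all 19 autosomes in the larger set. Per 1000 regions called in all 4 control and combined libraries, chromosome 19 held the most with 16.3 (25 of 1530) and chromosome 11 the fewest with 6.09 (19 of 3121). No member open in the single genotypes only lay on chromosomes 15, 16 or 17, and chromosome 11 held the most with 5. Of the 109822 merged regions, 4644, 3820 and 4847 lay on chromosomes 15, 16 and 17, and 7230 on chromosome 11. These are small counts, and no difference between chromosomes was tested.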

How the data were processed

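ATAC-seq peak lists of 8 libraries were analysed. The authors deposited 1 headerless list of 6 columns per library, so peaks were not pooled. Its score, between 0.99 and 1, is the authors' value per peak, whose meaning was not given in the sources used here. Bowtie and the mm9 build are named in the submitters' processing notes. How peaks were called, and how duplicates and the transposase offset were treated, was not given in the sources used here. Read depth is unknown, and peak number and read depth cannot be told apart. Intervals that need counts are not given.

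All 557040 peaks were merged where they shared 1 bp or more (Python 3.11.15, numpy 2.4.6, pandas 2.3.3, matplotlib 3.10.9), and coordinates are mm9, counted from 1. Both steps, merging and selection, were tested on simulated data. Distances run between edges. Tied scores share their mean rank. Named regions are the 10 highest in each direction by mean score percentile, then peak width. The members and lists were chosen with earlier results of these data known. Without an mm9 genome or annotation, genes, exons, introns, marker genes, gene lists, motifs and sequences were not analysed here. Members were described by counts and medians without a test. Alternatives were equal peak numbers, the upper 50% by score, merging at 100 bp of overlap or up to 1000 bp apart, all chromosomes, exchanged labels and leaving out libraries.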

Additional observations from a re-analysis of the deposited data

Results flagged for a closer look

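The 396 regions open in control and the combined genotype only, and the 37 open in the single genotypes only, had calls that moved in opposite directions with Flt3-ITD in Smc3-undeleted and in Smc3-deleted cells. The rule chose them for this, and the difference was not tested. On the sex chromosomes, left out above, 7 further regions were open in control and the combined genotype only, all on X, and 11 were open in the single genotypes only, 10 on X and 1 on Y. Over all chromosomes these sets held 403 and 48 regions. X held 2.60% and 2.72% of all peaks in the combined libraries, which do not call the 11, and 3.49% to 3.79% in the other libraries. Whether the counts on X go with these shares was not tested.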

How the results depend on the processing

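No paired analysis was possible because the counts come from no test. With equal peak numbers 131 and 146 regions were found, holding 97 of the 396 and 31 of the 37; the upper 50% of each list gave 241 and 29, holding 5 and 7 of them. Merging at 100 bp of overlap gave 418 and 77, merging up to 1000 bp apart 350 and 14, and all chromosomes 403 and 48. Leaving out 1 library gave 563 to 1124 and 66 to 97. Leaving out both libraries of a genotype, chosen after seeing the data, gave 6416 and 392 without control, 2565 and 772 without Flt3-ITD, 1261 and 514 without Smc3 del/+, and 1472 and 339 without the combined genotype. With equal peak numbers the mean over libraries of the larger set's median percentile rose from 23.3 to 33.3, and the share with a peak of the other side within 1 kb went from 12.6% to 17.4% and, for the single-genotype set, from 38.5% to 23.6%. The followed shares of 26.9%, 70.2%, 68.1% and 6.17% became 13.8%, 50.6%, 60.8% and 4.67%, an alternative chosen after seeing the data. None of the 20 named regions turned its direction under any setting, but for most settings the rule fixed this in advance. Each has calls on 1 side only, so leaving out libraries, cutting lists by score, exchanging labels or adding the sex chromosomes could not turn it. On merging up to 1000 bp apart 12 went to no difference and 3 kept part of it, and in the upper 50% 8 kept part of it. The causes were not tested.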

Other observations

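Of the 396 members of the larger set, 40 (10.1%) lay within 100 kb of another. With gaps of up to 100 kb they formed 20 tracts of 2 regions, and the other 356 stood alone; no tract held 3. The median distance between nearest members was 1361 kb, against 534 kb for the 975 regions open with Flt3-ITD only and 253 kb for the 1277 open without it, sets of larger size. In the smaller sets it was 5453 kb for the 141 regions open with Smc3 deletion only and 3715 kb for the 161 open without it. Among these sets the distance was shorter the larger the set, so the spacing is not read as a trait of the members. In the single-genotype direction the only members within 10 kb of each other were chr19:5796081-5798074 and chr19:5798965-5799421, 890 bp apart.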
